A study of Mus musculus with 9 samples.

Results

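Chil3, Ngp, Ly75, Cd24a and Gbp9 are 5 genes with known roles in myeloid and other immune cells. They were selected on gene name from the deposited count tables, and all 5 were among the 237 genes of the first table and the 194 genes of the second. The RNA was from C57BL/6 mouse medial prefrontal cortex (mPFC), in 9 libraries of 3 groups with 3 libraries each: the insoluble fraction at 22 months of age, overexpression of YTHDF1 and YTHDF2 together (YTHDF1+2 OE, here OE), and RNA immunoprecipitation of YTHDF2 (YTHDF2 RIP, here RIP). How old the OE and RIP animals were, the vector and promoter of the overexpression, the fraction from which OE RNA was taken and the antibody of the RIP are not given in the sources used here, and no source says whether the libraries of a group came from separate animals. P-values therefore measure the spread between these libraries, which may be technical.

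The genes were proposed, and in that sense chosen by, earlier measured values of these data, above all the log2 fold changes of OE over the insoluble fraction, where Chil3 had the second lowest, Ngp the fifth lowest and Ly75 the third highest log2 fold change of 195 genes tested. Their values in that comparison are given as a description. No p-value is given for them there, and their calls there support nothing. The tables held selected genes only, by a criterion not given in the sources used here, so totals are totals over listed genes and sequencing depth is unknown. The totals ran from 66812 to 77705 counts in the insoluble fraction and from 80116 to 99369 in OE over 237 genes, and from 79389 to 83620 in RIP over 194 genes. In each insoluble and OE library the 5 genes together held between 1.45% and 1.69% of the counts of the first table. In the second table they held between 1.75% and 1.83% in the insoluble libraries and between 2.30% and 2.50% in the RIP libraries. Chil3 alone held between 0.10% and 0.15% in those insoluble libraries and between 0.67% and 0.84% in RIP. The higher sum in RIP was thus largely that of Chil3 and not of the 5 genes as a set.

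YTHDF proteins bind RNA that carries N6-methyladenosine (m6A), a methyl mark placed on adenosines of messenger RNA. YTHDF2 is best known for directing such RNA to deadenylation and decay, and YTHDF1 has been linked to translation. In the brain, resident microglia are the main myeloid cells, while neutrophils, monocytes and dendritic cells are found mostly in vessels, meninges and choroid plexus. Chil3 (Ym1) is a secreted chitinase-like protein of macrophages and neutrophils that lacks chitinase activity. Ngp, neutrophilic granule protein, is stored in the granules of maturing neutrophils and belongs to the cystatin fold family. Ly75 (DEC-205) is an endocytic receptor of dendritic cells and thymic epithelium that delivers ligands for antigen presentation. Cd24a encodes a small, heavily glycosylated surface protein held by a lipid anchor, found on B cell precursors and granulocytes and also on developing neurons and epithelia. Gbp9 is one of the guanylate-binding proteins, large GTPases induced by interferon.

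All 5 genes are annotated as protein-coding in GENCODE release M21 (GRCm38), whose build matches the mm10 named in the submitters' processing notes. Chil3 (ENSMUSG00000040809) lies on chromosome 3 from 106147554 to 106167564 on the minus strand. Ngp (ENSMUSG00000032484) lies on chromosome 9 from 110419747 to 110423012 on the plus strand. Ly75 (ENSMUSG00000026980) lies on chromosome 2 from 60292103 to 60383303 on the minus strand. Cd24a (ENSMUSG00000047139) lies on chromosome 10 from 43578284 to 43584265 on the plus strand, and Gbp9 (ENSMUSG00000029298) on chromosome 5 from 105077630 to 105139539 on the minus strand.

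How far each count belongs to its gene alone was described by cutting the longest transcript into overlapping 50-base words and looking for them in the transcripts of all other genes, on either strand. Ngp had 100% unique words, Ly75 97.8%, Cd24a 96.1% and Gbp9 91.7%, whereas Chil3 had 70.6%. The longest transcript of Gbp9 is annotated as a retained intron, so its share may not hold for other transcripts of the gene. Chil3 shared 18.5% of its 1490 words with its neighbour Chil4 and 14.6% with the locus Gm6522. Chil4 was not among the genes analysed here, so the Chil3 count is uncertain. Gbp9 shared words with 7 genes, among them Gbp8, Gbp4, Gbp6, Gm43302, Gbp11 and Gbp10, and its locus overlaps the annotated spans of Gbp8 and Gbp4. Ly75 overlaps Gm13571, and whether counting used strand is not given in the sources used here.

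The extent of the overlap between Chil3 and its paralog is shown by the longest run that their coding sequences have in common. The coding sequences agreed at 95.4% of 1194 bases compared from the start codon without gaps. The longest identical run had 136 bases, coding bases 987 to 1122 of Chil3, in exons between 106148634 and 106148850 of chromosome 3. A read lying within it could have come from either gene.
Chil3 and Chil4 shared run: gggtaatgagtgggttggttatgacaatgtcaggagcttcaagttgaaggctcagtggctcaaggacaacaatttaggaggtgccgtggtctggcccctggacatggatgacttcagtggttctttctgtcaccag

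The promoters of Chil3 and Ngp are shown because both genes were lower in OE and higher in RIP than in the insoluble fraction. Of the 5 genes, 3 had an entry among the RefSeq promoters (GRCm38.p6): Chil3, Ngp and Ly75. The bases before the start were searched on both strands for GGAAGT, a core bound by ETS factors such as PU.1, for TTGCNNAA, a C/EBP word, and for TATAAA. Capitals mark a match, and ACTTCC is GGAAGT read on the other strand. The first line is Chil3, chr3:106167565-106167814, minus strand. The second is Ngp, chr9:110419558-110419746, plus strand, ended where the GENCODE transcript starts.
Chil3 promoter: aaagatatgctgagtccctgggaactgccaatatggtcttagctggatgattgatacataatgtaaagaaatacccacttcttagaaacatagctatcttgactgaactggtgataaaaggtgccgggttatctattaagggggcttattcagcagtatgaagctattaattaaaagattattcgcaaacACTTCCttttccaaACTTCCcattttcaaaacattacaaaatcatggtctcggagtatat
Ngp promoter: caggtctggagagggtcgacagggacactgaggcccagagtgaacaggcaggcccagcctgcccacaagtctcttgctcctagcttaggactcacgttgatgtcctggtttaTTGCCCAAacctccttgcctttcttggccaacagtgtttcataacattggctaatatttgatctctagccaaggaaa
Chil3 held 2 matches to GGAAGT and Ngp 1 match to TTGCNNAA in the bases shown, so the pair had no matched word in common there. Ngp held a second match to TTGCNNAA in the full 250 bases before its RefSeq start. Ly75, which was higher in OE, held 1 match to GGAAGT and 1 to TTGCNNAA in the 220 bases before its GENCODE transcript start, and so had a word in common with each of the pair. Over the 250 bases before the start of 32851 promoters in that table, 19.7% held GGAAGT, 9.56% TTGCNNAA and 12.4% TATAAA. A match is a run of letters and no evidence of binding.

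The secreted and granule genes had the widest spread between groups. Counts of Chil3 in replicates 1 to 3 were 74, 68 and 93 for the insoluble fraction, 52, 45 and 45 for OE and 554, 702 and 616 for RIP. The RIP counts were far above all others, and the OE counts were below all others. Those of Ngp were 98, 71 and 75 for the insoluble fraction, 57, 55 and 52 for OE and 239, 210 and 235 for RIP. It had the same order of groups as Chil3, with no overlap between any of them.

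The 2 surface proteins differed from these and from each other. Counts of Ly75 were 19, 29 and 27 for the insoluble fraction, 74, 58 and 40 for OE and 66, 61 and 62 for RIP. The insoluble libraries were the low ones, while the OE and RIP counts overlapped. Cd24a was the most abundant of the 5, with counts of 870, 759 and 679 for the insoluble fraction, 1022, 970 and 839 for OE and 759, 759 and 717 for RIP. Its raw counts in RIP overlapped those of the insoluble fraction.

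Gbp9, the interferon-induced GTPase, was the remaining gene. Its counts were 254, 248 and 213 for the insoluble fraction, 255, 218 and 222 for OE and 289, 321 and 354 for RIP. Raw counts of the insoluble fraction and OE overlapped. Raw RIP counts were higher, but the RIP libraries also held more counts over the listed genes than the insoluble libraries did.

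On a common scale for the 9 libraries, CPM over the 194 genes in both tables with TMM scaling (a library's count as a share of its listed-gene total), Chil3 stood at 7059 ± 968 in RIP, 1188 ± 288 in the insoluble fraction and 614 ± 43.7 in OE (mean ± SD, n = 3 each). Ngp stood at 2574 ± 140 in RIP, 1216 ± 155 in the insoluble fraction and 710 ± 48.8 in OE. For both genes the order was RIP, insoluble fraction, OE, and neighbouring groups did not overlap. Ly75 stood at 730 ± 139 in OE, 711 ± 17.0 in RIP and 379 ± 99.3 in the insoluble fraction. OE and RIP overlapped in Ly75, and without TMM scaling their order was the other way round.

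**Figure D1:**
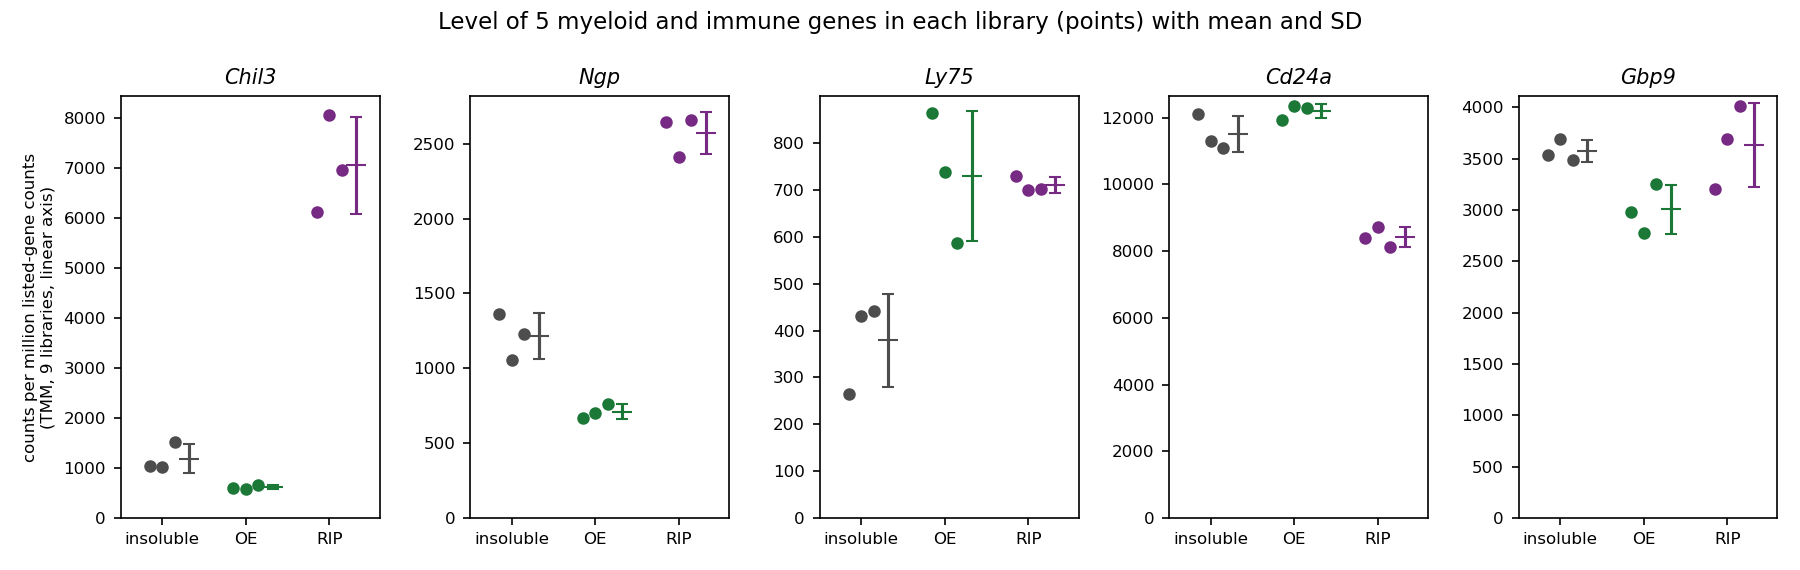
CPM over the listed genes (vertical axes, linear, from 0) of the 5 genes in each of the 3 libraries of the insoluble fraction, OE and RIP. Points are libraries, and bars give mean and SD. Chil3 ranged from 573 in the lowest OE library to 8066 in the highest RIP library.

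Cd24a stood at 12202 ± 221 in OE, 11506 ± 542 in the insoluble fraction and 8416 ± 300 in RIP on the same scale. OE and the insoluble fraction overlapped, and all RIP libraries lay below both. Gbp9 stood at 3633 ± 407 in RIP, 3571 ± 108 in the insoluble fraction and 3004 ± 241 in OE. The RIP range of Gbp9, 3201 to 4010, held that of the insoluble fraction, 3482 to 3691, and overlapped that of OE. In these bulk libraries fewer cells of a type and less RNA per cell cannot be told apart.

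Compared per 1000 bases of merged exons, a scale that allows for gene length, Cd24a had the highest level in the insoluble fraction, at a CPM of 4460. Ngp followed at 995, Chil3 at 728 and Gbp9 at 690.3, and Ly75 was lowest at 54.9. In RIP the level of Chil3 per 1000 bases, 4326, was above that of Cd24a, 3262. In OE the level of Cd24a, 4730, was again the highest and that of Ly75, 105.7, the lowest. Chil3 shares sequence with other genes, and the merged exons of Gbp9 include a transcript annotated as a retained intron. The places of Chil3 and Gbp9 on this scale are therefore uncertain.

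The first comparison asked how OE RNA differed from the insoluble fraction. Positive values are higher in OE. Chil3 was lower by a log2 fold change of -0.96 ± 0.18 (SE) and Ngp by -0.80 ± 0.17, and the OE libraries of both lay below all insoluble libraries after scaling. Ly75 was higher by 0.96 ± 0.23, with all OE libraries above all insoluble ones. Gbp9 was lower by -0.27 ± 0.09, with all OE libraries below all insoluble ones after scaling. Cd24a differed by 0.07 ± 0.06, with overlapping libraries in the 2 groups. The median over the 5 genes, which were chosen on this comparison, was -0.27, beside -0.01 over all 195 genes tested.

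All 5 genes passed the filter on low counts, with at least 19 counts in every library, and 4 of 5 were under an adjusted p-value of 0.05 by edgeR's quasi-likelihood test, 3 lower and 1 higher. Of all genes tested, 39.5% were, 21.0% higher and 18.5% lower. Scaled groups did not overlap in 26.2% of all genes with OE higher and in 23.1% with OE lower, and Chil3, Ngp, Gbp9 and Ly75 were among these. As the genes were proposed with this comparison known, the count is no evidence about them. The Gbp9 call was lost in DESeq2 and when insoluble replicate 2 or 3 or OE replicate 1 or 2 was left out. The authors' deposited table does not state which group its fold change has on top, and over the table the values ran against the ratio of OE to insoluble counts. Read as insoluble fraction over OE, the authors' deposited table gave 2.00 for Chil3, 1.78 for Ngp, 1.23 for Gbp9, 0.977 for Cd24a and 0.532 for Ly75. That reading was taken from the counts, so the shared direction of all 5 genes is no separate check of them.

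**Figure D2:**
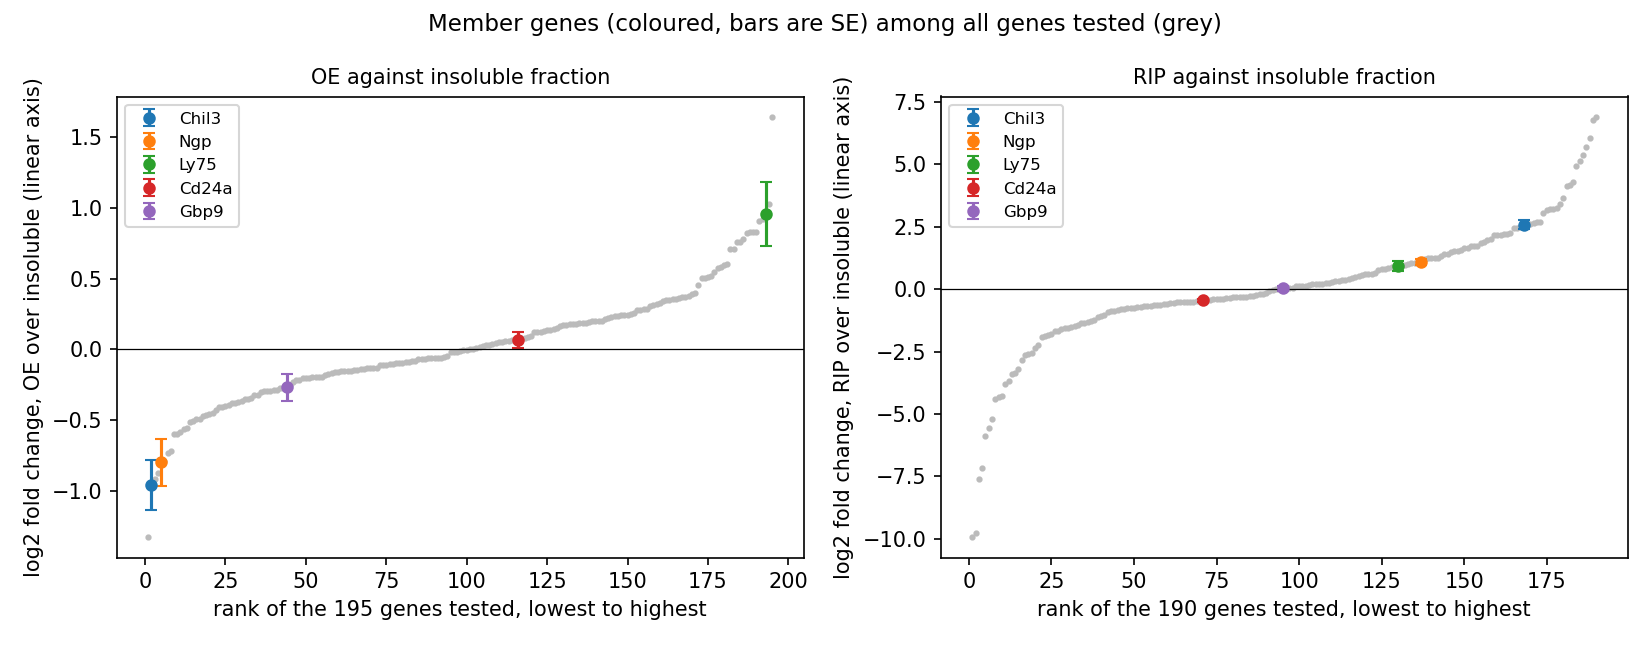
Log2 fold change over the insoluble fraction (vertical axes) of every gene tested, ranked from lowest to highest (horizontal axes), for OE with 195 genes and RIP with 190. Grey points are all genes, and coloured points with SE bars are the 5 genes. Chil3 and Ngp lie near the low end in OE and above 1 in RIP.

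The second comparison asked how RNA in YTHDF2 RIP differed from the insoluble fraction. No library is labelled as an input or control precipitate of the RIP. Binding to YTHDF2 and differences of preparation, fraction or age therefore cannot be told apart here. A further limit touches each value of this comparison. The authors' deposited table for RIP gave fold changes that bore little relation to the counts in the same rows. Spearman's rho of the log2 deposited fold change with the log2 count ratio was 0.100 over 194 genes, against -0.997 over the 237 genes of the OE table, as a description across genes that share libraries. For Chil3 the authors' deposited table gave 0.806, for Ngp 0.790, for Cd24a 0.783, for Gbp9 0.490 and for Ly75 1.91. Read as RIP over insoluble fraction, these had the direction of the counts in Ly75 and Cd24a, and read the other way in Chil3, Ngp and Gbp9. No reading of the column fitted all 5 genes, so for these genes it could not be checked that the RIP counts stand beside the right names. The deposited mean signal was likewise the same in both tables for all 194 genes. For Chil3 it was 64.3, where the RIP counts averaged 624, so that column was not computed from these RIP counts. Whether the deposited fold changes or the counts are out of place was not tested.

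**Figure D3:**
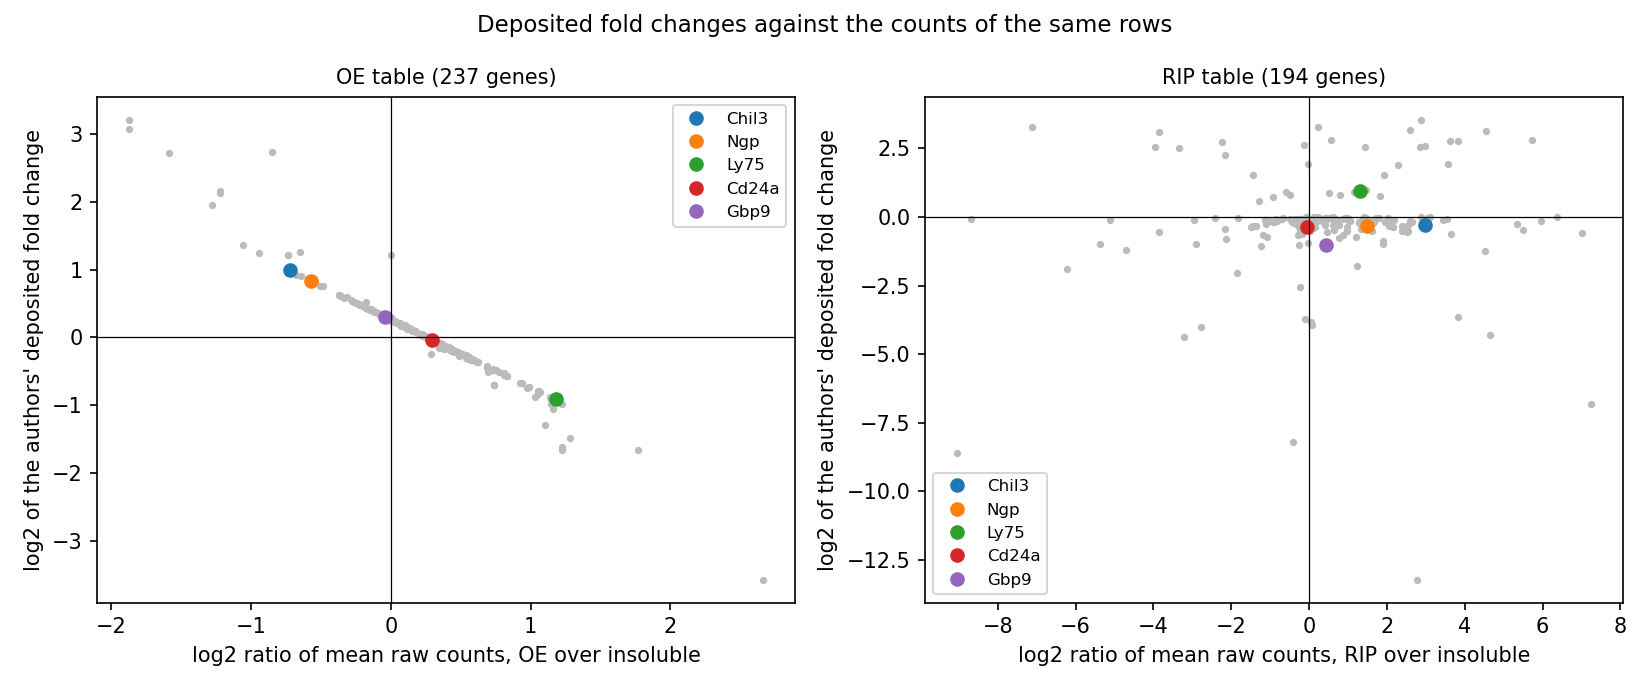
Log2 of the authors' deposited fold change (vertical axes) against the log2 ratio of mean raw counts, OE or RIP over insoluble fraction (horizontal axes), for 237 genes of the OE table and 194 of the RIP table. Coloured points are the 5 genes. The OE points follow a falling line (rho -0.997) and the RIP points do not (rho 0.100).

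As the rows stand, Chil3 rose in RIP by a log2 fold change of 2.57 ± 0.18 (SE), a 5.95-fold change (edgeR BH-adjusted p = 1.63e-06), and was higher in 3 of 3 RIP libraries. Ngp rose by 1.08 ± 0.13, a 2.11-fold change (edgeR BH-adjusted p = 6.72e-05). Ly75 rose by 0.92 ± 0.19, a 1.89-fold change (edgeR BH-adjusted p = 0.00205). The genes were chosen on OE values over the same insoluble libraries, so their RIP p-values are not free of that choice. For Ly75, high in OE, the choice favours low insoluble counts and so a higher value in RIP. After scaling, all RIP libraries of these 3 genes lay above all insoluble libraries, as they did in 43.2% of all genes tested.

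Cd24a fell in RIP. Its log2 fold change was -0.45 with an SE of 0.06 (edgeR BH-adjusted p = 7.82e-05), and every scaled RIP library lay below every insoluble one. Its raw counts overlapped, so this difference rests on the scaling by the listed genes. Gbp9 differed by 0.02 ± 0.10 (edgeR BH-adjusted p = 0.843), a ratio of 1.02 with an interval from 0.883 to 1.17 (95%, from the SE). With upper-quartile scaling, which moved the median over all genes from 0.03 to -0.32, Gbp9 was at -0.32 and passed the threshold (edgeR BH-adjusted p = 0.0224). Over the 11 alternatives its adjusted p-value ran from 0.0224 to 0.977.

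Of the 5 genes, all tested, 4 were called in RIP, 3 higher and 1 lower. Of the 190 genes tested in RIP, 85.3% were called, 40.5% higher and 44.7% lower, so 4 of 5 is near the background and is no result about these genes. Their median log2 fold change, that of Ly75, was 0.92, beside 0.03 over all genes tested. As the genes were chosen on values over the same insoluble libraries, this median is a description only. In size, Chil3 ranked 23 from the top of the 190 genes, Ngp 54 and Ly75 61, well inside the range of the table. The comparisons share the insoluble libraries, so a low or high insoluble library moves both. Side by side, the log2 fold changes in OE and RIP were -0.96 and 2.57 for Chil3, -0.80 and 1.08 for Ngp, 0.96 and 0.92 for Ly75, 0.07 and -0.45 for Cd24a and -0.27 and 0.02 for Gbp9.

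The spread between libraries differed among the genes. In RIP the highest Chil3 count was 1.27 times the lowest, with a variance 11.8 times that of counting error, whereas Ly75 had a ratio of 1.08 and a variance 0.036 times counting error. In the insoluble fraction Chil3 had a coefficient of variation of 24.2% and Ly75 one of 26.2%, against 3.08% for Gbp9 and 4.73% for Cd24a. Insoluble replicate 3 was the high Chil3 library, and insoluble replicate 1 was the low Ly75 and the high Ngp library. Without insoluble replicate 3 the log2 fold change of Chil3 was -0.74 in OE and 2.81 in RIP. Without insoluble replicate 1 that of Ly75 was 0.75 in each comparison.

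**Figure D4:**
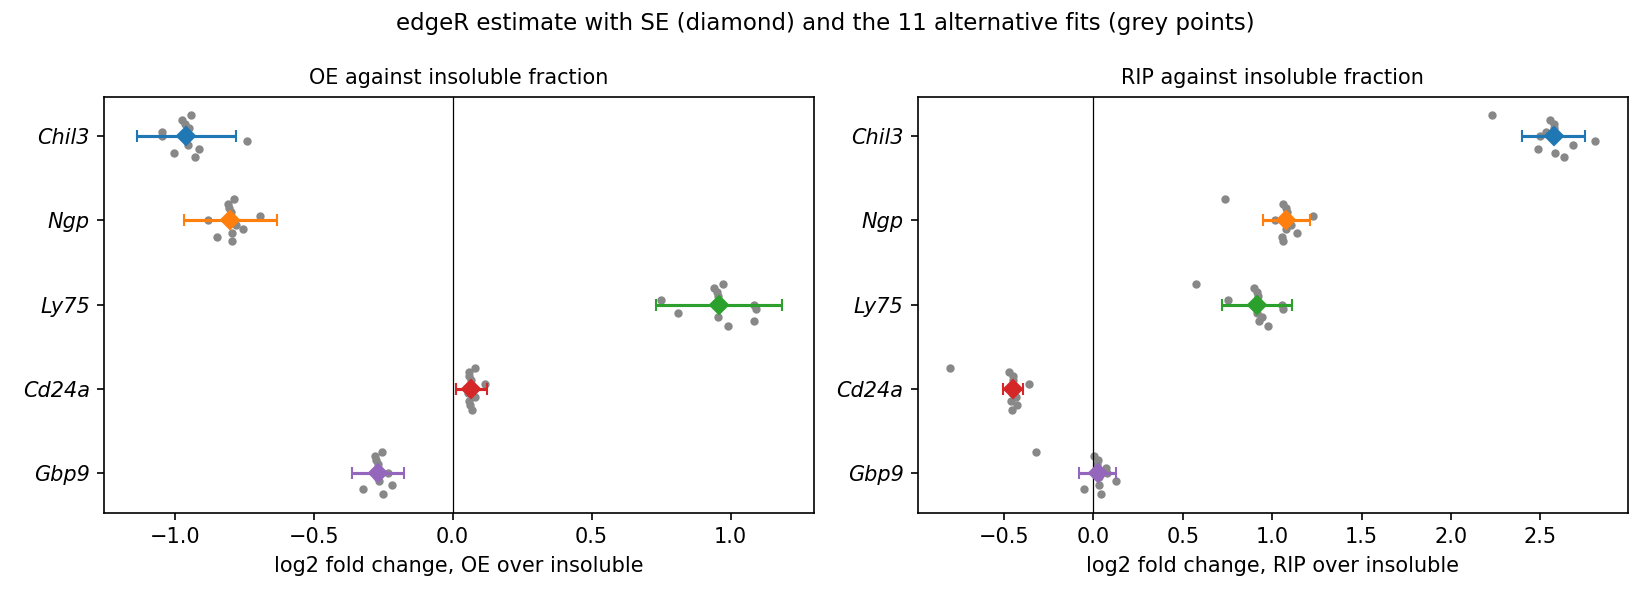
Log2 fold change over the insoluble fraction (horizontal axes) of each of the 5 genes (rows) in OE and RIP. Diamonds with bars give the edgeR estimate and SE, and grey points the 11 alternative fits. Gbp9 in RIP is the gene whose points lie on both sides of 0, from -0.32 to 0.13.

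The rest of the immune system was thinly covered by the tables. Of a list of 125 immune genes that includes the 5, 7 were in each table, and the other 2 were Lcn2, a siderophore-binding granule protein, and Pglyrp1, a granule protein that binds bacterial peptidoglycan. Neither was called in OE. Lcn2 counts were 358, 348 and 353 for the insoluble fraction and 395, 345 and 318 for RIP, and it fell by 0.42 ± 0.10 (SE) on the log2 scale (edgeR BH-adjusted p = 0.00383). Pglyrp1 counts were 33, 30 and 30 for the insoluble fraction and 231, 285 and 272 for RIP, and it rose by 2.67 ± 0.15 (edgeR BH-adjusted p = 4.39e-07). The 3 granule genes Ngp, Lcn2 and Pglyrp1 thus did not share a direction in RIP. Of the 7 genes, 1 was called higher and 3 lower in OE, and 4 higher and 2 lower in RIP, beside 39.5% and 85.3% of all genes tested that were called, and 5 of the 7 are the genes chosen on their values.

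Defining markers of the cells that could supply these transcripts were largely missing from the genes analysed here. Of the marker lists, 2 of 14 neutrophil, 1 of 10 macrophage or monocyte, 1 of 9 dendritic and 0 of 10 microglia genes were in the tables, and those present were Ngp, Lcn2, Chil3 and Ly75. None of 8 B or T cell, 8 erythroid or platelet, 10 neuron, 7 astrocyte or 8 oligodendrocyte markers was present, so neither the tissue nor a myeloid origin could be checked by markers. Of 18 endothelial markers 15 were in the OE table and 12 in the RIP table. Their summed counts were between 1.85% and 1.96% of the listed total in the insoluble libraries and between 1.49% and 1.60% in OE, and between 1.99% and 2.10% in the insoluble libraries and between 3.75% and 4.51% in RIP, where Cldn5 held at most 13 counts and Tie1 had 65, 693 and 56. In the OE table Slco1a4 had 0 counts in every insoluble library and Pecam1 at most 3. In OE 4 of the 12 tested were called higher, Flt1, Erg, Sox17 and Sox7, and 1 lower, Cd93, with a median log2 fold change of 0.02 beside -0.01 over all genes tested and with 39.5% of all genes called. In RIP 5 of 12 were called higher and 2 lower, fewer than the 85.3% of all genes called there, with a median of 0.64 beside 0.03. Cd93, a receptor of endothelial and myeloid cells, was the most abundant of these markers, at 675, 656 and 548 counts in insoluble replicates 1 to 3 against 460, 426 and 433 in those of OE, a log2 fold change of -0.74. Without Cd93 the summed share was between 1.02% and 1.06% in the insoluble libraries and between 1.03% and 1.06% in OE, so the lower sum in OE was that of Cd93. In RIP the sum without Cd93 was between 2.59% and 3.49%, against 1.10% to 1.12% in the insoluble libraries. Sox7 went from 30, 21 and 27 counts in the insoluble fraction to 575, 639 and 616 in RIP. Robo4 went from 45, 42 and 39 to 467, 494 and 410. Of the 11 tested without Cd93, 5 were called higher, 4 were not called, and 2 were called lower, Cdh5 and Kdr. Chil3 and Ngp were also higher in RIP, and the part of this sum in their differences was not tested.

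The listed genes most like each of the 5 were found by Pearson's correlation of log2(CPM + 1) over the 9 libraries among the 189 genes that averaged 10 or more counts a library. The libraries fall into 3 groups, so these values mostly describe the differences between groups. They include the RIP counts, for which it could not be checked that they stand beside the right names. Chil3 was most like Bmp5 (r = 0.992) and Plekhg2 (r = 0.985). Ngp was most like Cpsf4l (r = 0.988) and Bmp5 (r = 0.981), and Cd24a most like Lama5 (r = 0.991) and mt-Tp (r = 0.985). Ly75 was most like Abcc6 (r = 0.897) and Cxcl12 (r = 0.891). Gbp9 was least matched, with Cd93 at r = 0.792 and Gm34294 at r = 0.733. Among the 5 genes, Chil3 and Ngp were alike (r = 0.969), Chil3 and Cd24a were opposed (r = -0.976), and Ly75 followed neither Chil3 (r = 0.228) nor Ngp (r = 0.021).

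The m6A mark sits in short sequence contexts of which GGACT is the best known, so GGACT and the shorter GGAC were counted on the sense strand of the longest transcript. Ly75, with 6901 bases, held 13 GGACT words, or 1.88 per 1000 bases. Chil3, with 1539 bases, held 2, or 1.30 per 1000 bases. Gbp9, with 5043 bases in a transcript annotated as a retained intron, held 3, or 0.595 per 1000 bases. Neither Ngp, with 1222 bases, nor Cd24a, with 1816, held the word GGACT. The median over the 144 protein-coding genes of the RIP table was 1.23 per 1000 bases, with quartiles of 0.689 and 1.77. For GGAC the densities were 5.20 in Chil3, 4.49 in Ly75, 3.77 in Gbp9, 2.20 in Cd24a and 0.818 in Ngp, beside a median of 4.71. The longest transcripts of Ngp, higher in RIP, and Cd24a, lower in RIP, both lacked GGACT. That of Cd24a has 1816 bases, while the merged exons of the gene hold 2580. A link between these words and the RIP values was not tested.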

How the data were processed

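Per the file headers, the values in the authors' deposited tables are raw counts of each listed gene, for the insoluble fraction with OE and with RIP. The submitters' processing notes name HISAT2 2.1.0, Bowtie2 2.2.3, HTSeq 0.6.0 and the build mm10, without their roles. Other deposited columns, per the file headers, are a mean signal, a fold change (linear ratio) and a p-value, taken as unadjusted. The deposited mean signal was the same in both tables for all 194 shared genes and was not used. Of 961 rows in the OE table, 724 were blank and left out. The insoluble counts were identical in both tables.

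Each comparison was fitted to its own whole table with edgeR 4.0.16 under R 4.3.3: filterByExpr (a level equal to about 10 counts in a library of median size, reached in at least 3 libraries, and 15 counts in all, so that a gene could pass through 1 group alone), TMM scaling, the quasi-likelihood test without a replicate block, and Benjamini-Hochberg (BH) adjustment over all genes tested, with calls under 0.05. This kept 195 of 237 and 190 of 194 genes. Scaling rests on selected genes, so every direction is relative to them. The SE values come from the fits and hold counting error and the spread between the libraries of a group, which may be technical. The procedure was tested on simulated data. Of the identifiers, 236 of 237 matched GENCODE M21.

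Replicates were compared by chi-square tests of their counts. Ratios of chi-square to degrees of freedom were 1.21, 1.33 and 1.17 within the insoluble fraction, from 1.54 to 2.59 within OE and from 5.96 to 12.8 within RIP. Insoluble replicates 2 and 3 differed least, so summing them as 1 library was added as an alternative after seeing the data. Other alternatives were DESeq2 1.42.0, upper-quartile scaling, no filter, a replicate block and leaving out each library. Same-numbered libraries did not deviate together (correlations from -0.207 to 0.0929).

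The genes and all gene lists were chosen with earlier results of these data known. Genes named besides the 5 were the listed members of the immune list and, for each of the 5, the 2 most like it. Of the endothelial markers and the added immune genes, those named were chosen after their values were seen.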

Additional observations from a re-analysis of the deposited data

How the results depend on the processing

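Chil3, Ngp and Ly75 kept direction and call in both comparisons in all 11 alternatives, and so did Cd24a, called in RIP and not in OE. In OE this is no support, since the genes were chosen on that comparison and the alternatives refit the same counts. The RIP alternatives also refit the same counts, and they share the insoluble libraries with that comparison. In RIP, upper-quartile scaling lowered each of the 5 values, to 2.23 for Chil3, 0.73 for Ngp, 0.57 for Ly75, -0.80 for Cd24a and -0.32 for Gbp9. Gbp9 in RIP ran from -0.0504 without RIP replicate 3, a change of sign, to 0.13 without RIP replicate 1, and Gbp9 in OE lost its call in 5 of 11 alternatives, with values from -0.32 to -0.22. Over the whole tables, calls numbered 77 in OE, with 53 in DESeq2 and from 55 to 75 without 1 library, and 162 in RIP, with from 156 to 165 without 1 library. Upper-quartile scaling gave 164 calls in RIP, 68 of them higher, against 77 of 162. Summing insoluble replicates 2 and 3 gave 70 and 162 calls.

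With a replicate block, 73 genes in OE and 160 in RIP were called, and no call of the 5 genes changed. Same-numbered libraries did not deviate together, so the samples were treated as unpaired. With Ly75 at 19 to 74 counts, it had the fewest counts and the widest SE of the 5 genes in each comparison, 0.23 in OE and 0.19 in RIP. No rule on single libraries could be applied to groups of 3.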

Other observations

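A further 9 immune-related genes in the tables lay outside the list above and were picked after their names and values were seen, so they support nothing. Of the interferon-induced genes, Oas2, a synthetase that activates RNase L, had counts of 76, 64 and 67 for the insoluble fraction, 57, 75 and 65 for OE and 571, 474 and 488 for RIP. In RIP its log2 fold change was 2.48 ± 0.11 (SE; edgeR BH-adjusted p = 9.49e-08). With TMM scaling Gbp9 was not called in RIP, and Sp100 and Helz2 were called lower there. Sp100, a nuclear body protein, was lower by -0.40 ± 0.12 in OE and by -1.07 ± 0.13 in RIP (edgeR BH-adjusted p = 0.0029 and 7.55e-05). Helz2, a helicase-type coactivator, was higher by 0.18 ± 0.04 in OE and lower by -0.66 ± 0.09 in RIP (edgeR BH-adjusted p = 0.000479 and 0.000159). Slfn5 held at most 1 count.

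Cxcl12, a chemokine that retains leukocytes in tissue, was the added gene most like Ly75. Its counts were 143, 135 and 144 for the insoluble fraction, 325, 259 and 226 for OE and 378, 351 and 379 for RIP, with log2 fold changes of 0.71 ± 0.10 and 0.98 ± 0.10 (SE; edgeR BH-adjusted p = 4.08e-09 and 2.33e-05). Rasgrp4, a Ras exchange factor of mast cells and granulocytes, was lower in both, by -0.38 ± 0.09 in OE and -1.32 ± 0.11 in RIP (edgeR BH-adjusted p = 0.000412 and 6.62e-06). Sigirr, a negative regulator of interleukin-1 receptor signalling, and Lbp, which carries lipopolysaccharide, had log2 fold changes of 1.26 ± 0.20 and 2.16 ± 0.22 in RIP (edgeR BH-adjusted p = 0.000332 and 2.25e-05). The insoluble counts of Lbp were 11, 8 and 6, and its RIP counts 44, 56 and 49. Lbp did not pass the filter on low counts in OE and passed it in RIP through the RIP libraries. Its p-value in RIP therefore supports nothing. The fold changes of the authors' deposited RIP table do not follow the counts of their rows, and that limit holds for each of these RIP values.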
